A study of Mus musculus with 6 samples.

Results

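The genes described here encode 10 RNA-binding proteins of the Musashi, Elavl (Hu), quaking and fragile X families. They were chosen as rows of the deposited table by name, as relatives in function of *Msi2*, whose difference between *Shank3* TG and WT mPFC stood out, and the question was whether that difference was alone in its class. All 10 were found among the 18254 genes of the table, and all 10 were among the 16714 genes that were compared, whose mean reached 5 normalized counts. Because the difference in *Msi2* led to the choice, the genotype differences of the 10 genes are given as a description without a test.

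The mPFC of male mice aged 10 to 12 weeks on a C57BL/6J background was sequenced as 3 *Shank3* TG and 3 WT libraries, which carry the replicate numbers 1 to 3 in each genotype. TG mice carried an EGFP-*Shank3* transgene, which encodes the tagged postsynaptic scaffold Shank3, and the WT mice were their littermates without it. The promoter of the transgene is not given in the sources used here. A library was made from pooled tissue of 2 mice and counts as 1 replicate. *Shank3* had 16310 to 19004 normalized counts in the TG libraries and 6791 to 8374 in the WT libraries, as the labels say. Neural tissue was checked by 10 neuron markers, which summed to between 301307 and 363107 normalized counts in the 6 libraries. Such markers do not tell mPFC from other brain regions. No listed marker found in the deposited table was at 0 throughout, and of 6 listed oligodendrocyte precursor markers 5 were found there. The libraries summed to between 28363967 and 29447717 normalized counts. The libraries numbered 3 stood apart from the other 4 in both genotypes, with a correlation of 0.616 between the deviations of TG-3 and WT-3 from their genotype means over all tested genes. The values without them are therefore given beside the results.

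RNA-binding proteins of these families attach to short motifs in mRNAs and set how those mRNAs are spliced, stored, translated and degraded. Musashi proteins repress the translation of target mRNAs such as that of *Numb*, an inhibitor of Notch signaling, and are known from neural stem cells and astrocytes. Elavl proteins bind AU-rich and U-rich stretches of 3′ untranslated regions (UTRs) and stabilize the mRNAs. Elavl1 (HuR) is made in nearly all cells, whereas Elavl2, Elavl3 and Elavl4 (HuB, HuC and HuD) mark neurons. Quaking, the product of *Qk*, is abundant in oligodendrocytes and astrocytes and is needed for the mRNAs of myelin proteins. FMRP, the product of *Fmr1*, and its relatives Fxr1 and Fxr2 bind mRNAs on polyribosomes and at synapses, and loss of FMRP causes fragile X syndrome.

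The coding sequences of the pair *Msi1* and *Msi2* were the reason to ask first whether their reads could be told apart. In the longest protein-coding transcripts of GENCODE M21 (GRCm38), the coding sequences were 1086 and 984 bases long without the stop codon and identical at 74.6% of 979 aligned bases. The most similar window of 150 bases held 132 identical bases. It lies in exons 6 to 8 of both transcripts, at chr5:115435526-115440564 on the plus strand for *Msi1* and chr11:88413911-88590075 on the minus strand for *Msi2*, with the introns between the exons left out. Capitals mark the 18 bases at which the genes differ, and the strand shown is that of the mRNA.
Msi1: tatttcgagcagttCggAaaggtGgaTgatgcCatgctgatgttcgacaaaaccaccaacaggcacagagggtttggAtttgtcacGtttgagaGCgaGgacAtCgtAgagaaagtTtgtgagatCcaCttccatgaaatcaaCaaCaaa
Msi2: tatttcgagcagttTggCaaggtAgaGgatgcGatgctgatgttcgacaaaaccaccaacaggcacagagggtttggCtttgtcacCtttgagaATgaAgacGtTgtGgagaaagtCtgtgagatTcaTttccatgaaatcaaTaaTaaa
The longest run without a difference over the whole transcripts was 44 bases, and 14 of the 3103 stretches of 31 bases in the *Msi1* transcript were also found in that of *Msi2*. Within the Elavl family the longest shared run was 29 bases, between *Elavl3* and *Elavl4*, and within the fragile X family it was 20 bases. No stretch of 31 bases was shared by any pair of the longest transcripts in these 2 families, whose coding sequences were identical at 65.9% to 78.1% of the aligned bases. Other isoforms and genes of different families were not compared.

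*Msi2* was the 1 gene of the 10 whose libraries did not overlap between the genotypes. *Msi2* (ENSMUSG00000069769) lies on chromosome 11 from 88339382 to 88718513 on the minus strand. It had 4039.7, 4098 and 3632 normalized counts in TG-1, TG-2 and TG-3, against 2719, 2545 and 2915 in WT-1, WT-2 and WT-3. The lowest TG library, TG-3, was above the highest WT library, WT-3, and these were the closest of the TG and WT libraries. The TG mean was 3923 ± 254 and the WT mean 2726.5 ± 185 (SD, n = 3), a log2 difference of 0.52 (standard error 0.08) or 1.44-fold. Within the replicate numbers the log2 difference was 0.57, 0.69 and 0.32. It was 0.63 without the libraries numbered 3 and 0.48 to 0.58 when any 1 library was left out. Genotype took 91.7% of the sum of squares of *Msi2* over the 6 libraries on the log2 scale, and replicate number 0.33%.

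*Msi1* (ENSMUSG00000054256, chr5:115429599-115455698, plus strand), the closest relative of *Msi2*, did not share this difference. It had 728, 764 and 758 normalized counts in the TG libraries. The WT libraries had 834, 707 and 758, and the TG values lay inside this range. The log2 difference was -0.03 (standard error 0.09), and -0.04 without the libraries numbered 3. The ratio of *Msi2* to *Msi1* normalized counts, which does not depend on how a library was scaled, was 5.549, 5.362 and 4.791 in the TG libraries against 3.262, 3.6 and 3.845 in those of WT. The ratio uses the *Msi2* values that led to the choice of genes and adds no separate evidence.

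**Figure D1:**
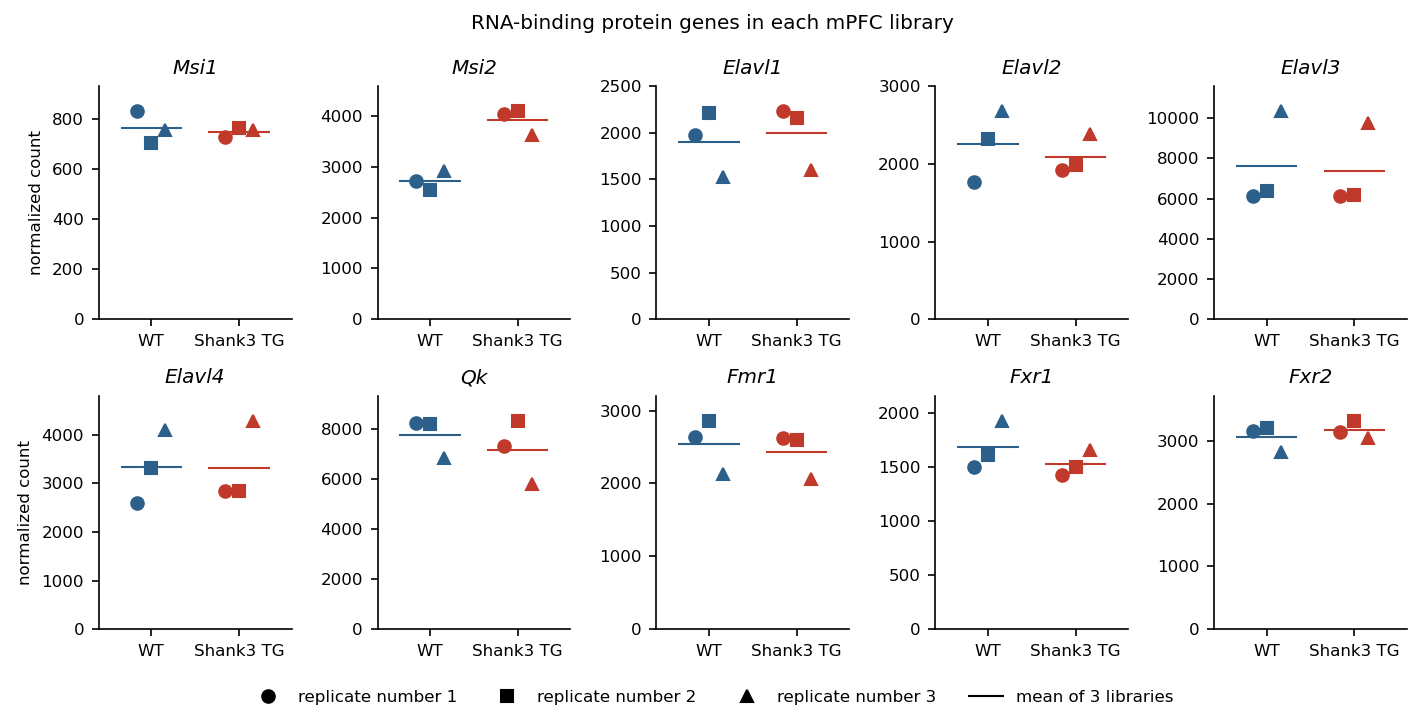
Normalized counts (vertical axes, each starting at 0) of the 10 genes in the 3 WT (blue) and 3 *Shank3* TG (red) libraries. Symbols give the replicate number and lines the mean of 3 libraries. *Msi2* is separated by genotype, from 2545 to 2915 in WT and from 3632 to 4098 in *Shank3* TG, whereas triangles (number 3) are the highest or lowest symbols of both genotypes in 8 of the other panels.

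The libraries of the 2 genotypes overlapped in all 4 Elavl genes. *Elavl1* (ENSMUSG00000040028, chr8:4285382-4325413) had 2234, 2155 and 1602 normalized counts in the TG libraries against 1980.3, 2208 and 1527 in those of WT. TG-3 and WT-3 were the lowest libraries of their genotypes, and the log2 difference was 0.07 (standard error 0.17). *Elavl2* (ENSMUSG00000008489, chr4:91250763-91400785) had 1919.6, 1984 and 2386 in the TG libraries against 1769.9, 2328 and 2683 in those of WT. Its lowest and its highest value were both WT libraries, and the log2 difference was -0.09 (standard error 0.16). *Elavl3* (ENSMUSG00000003410, chr9:22015005-22052023) had 6125, 6198 and 9761 normalized counts in the TG libraries against 6129, 6356 and 10358 in those of WT, a log2 difference of -0.04 (standard error 0.24). *Elavl4* (ENSMUSG00000028546, chr4:110203722-110351909) had 2848, 2833 and 4281 in the TG libraries against 2599, 3316 and 4093 in those of WT, a log2 difference of -0.01 (standard error 0.21). In both of these neuronal genes, TG-3 and WT-3 were far above the other 4 libraries, and the standard errors were the largest of the 10 genes. Without the libraries numbered 3 the log2 differences of the 4 Elavl genes lay between -0.06 and 0.07.

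*Qk* (ENSMUSG00000062078, chr17:10202601-10319854) had 7313, 8332 and 5804 normalized counts in the TG libraries against 8261, 8204 and 6868 in those of WT. TG-2 was the highest of all libraries and TG-3 the lowest, so the genotypes overlapped. The log2 difference was -0.13 (standard error 0.14), and it was -0.18, 0.02 and -0.24 within the replicate numbers and -0.08 without the libraries numbered 3. Genes of mature oligodendrocytes, cells in which *Qk* is abundant, differed more. All 10 oligodendrocyte markers were lower in *Shank3* TG, with a median log2 difference of -0.45 and a summed level of 76527 to 99711 normalized counts in the TG libraries against 115546 to 116013 in the WT libraries. The 10 astrocyte markers had a median of -0.02 and summed levels of 132341 to 149172 against 135625 to 156280. The part of oligodendrocyte content in the values of *Qk* was not tested, and in such bulk samples fewer cells of a type and less RNA per cell cannot be told apart.

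*Fmr1* (ENSMUSG00000000838, chrX:68678541-68717963) had 2625, 2599.9 and 2062 normalized counts in the TG libraries against 2633, 2858 and 2126 in those of WT. The log2 difference was -0.06 (standard error 0.14), and the lowest library of either genotype was the one numbered 3. *Fxr1* (ENSMUSG00000027680, chr3:34019943-34070322) had 1428, 1506 and 1661 in the TG libraries against 1507, 1614 and 1930.1 in those of WT, a log2 difference of -0.13 (standard error 0.11). Its TG library was the lower of each replicate number, with log2 differences of -0.08, -0.10 and -0.22, and the difference was -0.09 without the libraries numbered 3. *Fxr2* (ENSMUSG00000018765, chr11:69632990-69653297) had 3149.7, 3319 and 3042 in the TG libraries against 3160.2, 3205 and 2823 in those of WT, a log2 difference of 0.05 (standard error 0.08). It was the most even of the fragile X genes, with all 6 libraries between 2823 and 3319. Without the libraries numbered 3 the log2 difference was 0.02 for *Fxr2* and -0.07 for *Fmr1*.

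Across the 10 genes, 1 did not overlap between the genotypes, against 6.02% of all tested genes (2.91% higher and 3.12% lower in *Shank3* TG), and nothing is read from this count because *Msi2* was chosen for it. Of the 9 other genes, 2 had a log2 difference above 0 and 7 below, all between -0.13 and 0.07, with a median of -0.04 beside -0.0037 over all tested genes. Over all tested genes limma called 0 (0%) at an adjusted p-value of 0.05, while 336 genes (2.01%; 0.933% higher and 1.08% lower) were under 0.05 before adjustment. *Msi2* was the only one of the 10 with a log2 difference over 0.5 in size, as were 5.46% of all tested genes. The same direction at all 3 replicate numbers was found in 4 of the 10 genes, *Msi2* upward and *Elavl3*, *Fmr1* and *Fxr1* downward, against 24.8% of all tested genes. Over 16 other settings the log2 difference of *Msi2* stayed between 0.48 and 0.63. The largest in size of any other gene was that of *Elavl3*, -0.26 without TG-3. When pairs of equal number were taken as blocks, the standard errors of the 9 other genes came to between 0.05 and 0.08, against 0.08 to 0.24 without it, at the same log2 differences.

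**Figure D2:**
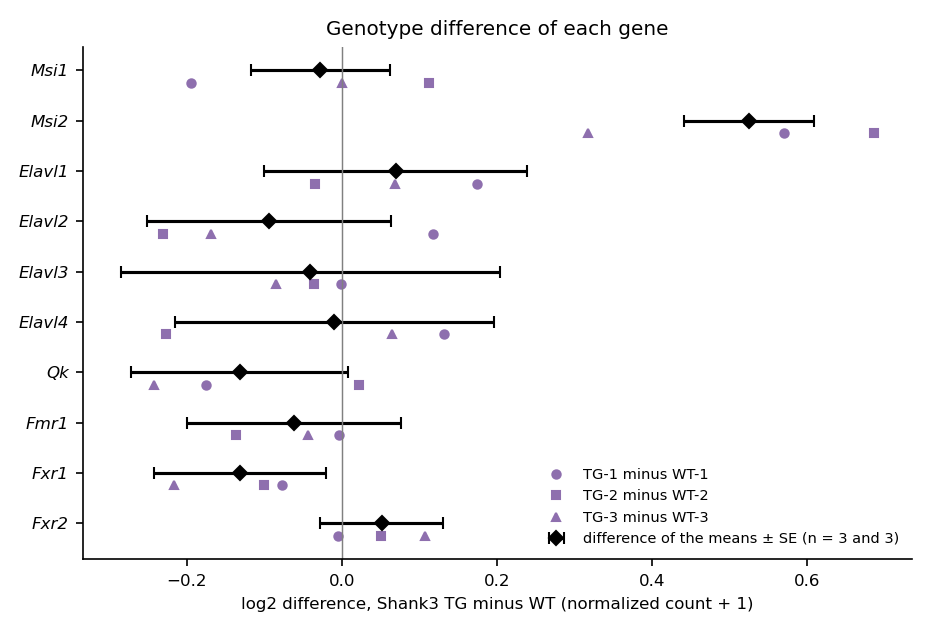
Log2 difference between *Shank3* TG and WT for each gene (horizontal axis, on normalized count + 1), as the difference of the means with its standard error (black, n = 3 and 3) and as the difference between libraries of the same replicate number (purple). *Msi2* lies at 0.52 with its 3 differences at 0.57, 0.69 and 0.32, and the other 9 genes lie between -0.13 and 0.07.

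Replicate number, which the choice of genes did not use, separated most of the 10 genes. Comparing TG-3 and WT-3 with the other 4 libraries with genotype in the model, 6 of the 10 genes passed an adjusted p-value of 0.05 in limma's test, against 14% of all tested genes (7.66% higher and 6.36% lower). *Elavl3* and *Elavl4* were higher in the libraries numbered 3, with log2 differences of 0.70 (standard error 0.05) and 0.54 (standard error 0.09), and *Fxr1* was higher by 0.24 (standard error 0.07). *Elavl1*, *Fmr1* and *Qk* were lower, by log2 differences of -0.45 (standard error 0.07), -0.35 (standard error 0.06) and -0.34 (standard error 0.07). Their adjusted p-values in limma's test lay between 0.00012 for *Elavl3* and 0.0475 for *Fxr1*. *Elavl2* had a log2 difference of 0.35 (standard error 0.10) that missed the threshold (adjusted p = 0.0539), and *Fxr2* one of -0.13 (standard error 0.06).

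These differences had the same sign in both genotypes for 8 of the 10 genes. These are the 8 whose libraries numbered 3 did not overlap the other 4, which fixes the sign in advance. *Elavl3* was higher in the library numbered 3 by 0.66 in *Shank3* TG and by 0.73 in WT, and *Elavl1* lower by a log2 difference of -0.45 in each. The ratio of *Elavl3* to *Elavl1* was 2.74, 2.88 and 6.09 in TG-1 to TG-3 and 3.10, 2.88 and 6.78 in WT-1 to WT-3. Thus the neuronal Elavl genes and the broadly expressed *Elavl1* lay on opposite sides of this comparison, and so did *Fxr1* and *Fmr1*. The 2 libraries numbered 3 did not overlap the other 4 in 8 of the 10 genes, 4 higher and 4 lower, against 40.9% of all tested genes (20.3% higher and 20.6% lower). The exceptions were both Musashi genes. *Msi1* had a log2 difference of 0.0025 (standard error 0.09) and *Msi2* of -0.0079 (standard error 0.08), the latter from -0.16 in *Shank3* TG and 0.15 in WT.

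The numbers were compared because those libraries had been seen to stand apart in these data, and the count rests on them. Without a variance trend *Elavl3* alone of the 10 genes was called, and with an empirical null none of the tested genes was. Without TG-3 or WT-3 only 1 library numbered 3 is left, which gives no spread of its own. With any 1 library left out, log2 differences ran from 0.66 to 0.73 for *Elavl3*, 0.47 to 0.62 for *Elavl4* and 0.18 to 0.31 for *Fxr1*. They ran from -0.49 to -0.42 for *Elavl1*, -0.38 to -0.33 for *Fmr1* and -0.43 to -0.26 for *Qk*. The labels do not say what a replicate number stands for. Markers of cell types moved with it: 5 of 10 astrocyte markers and 3 of 10 microglia markers were called lower in the libraries numbered 3 and none higher, against 6.36% of all tested genes lower and 7.66% higher, and among 10 neuron markers *Syt1* and *Nrgn*, named after their values were seen, were called higher and none lower. The neuron markers had no common direction, with 5 of 10 above 0, 5 below and a median log2 difference of -0.0043. Of 8 endothelial markers, *Pecam1*, also named after its values were seen, was called higher, with a log2 difference of 1.74, while 6 of the 8 were below 0 and the median was -0.12. Of 10 oligodendrocyte markers 1 was called lower, and of 8 progenitor and neuroblast markers 1 was called higher and 1 lower, which is near those shares. Astrocyte markers summed to 132341 to 135625 normalized counts in the libraries numbered 3 and 141492 to 156280 in the others. Microglia markers summed to 10096 to 10482 against 11102 to 13113. Neuron markers summed to 358909 to 363107 against 301307 to 330599, although 5 of the 10 were lower. The part of cell content in these differences was not tested.

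**Figure D3:**
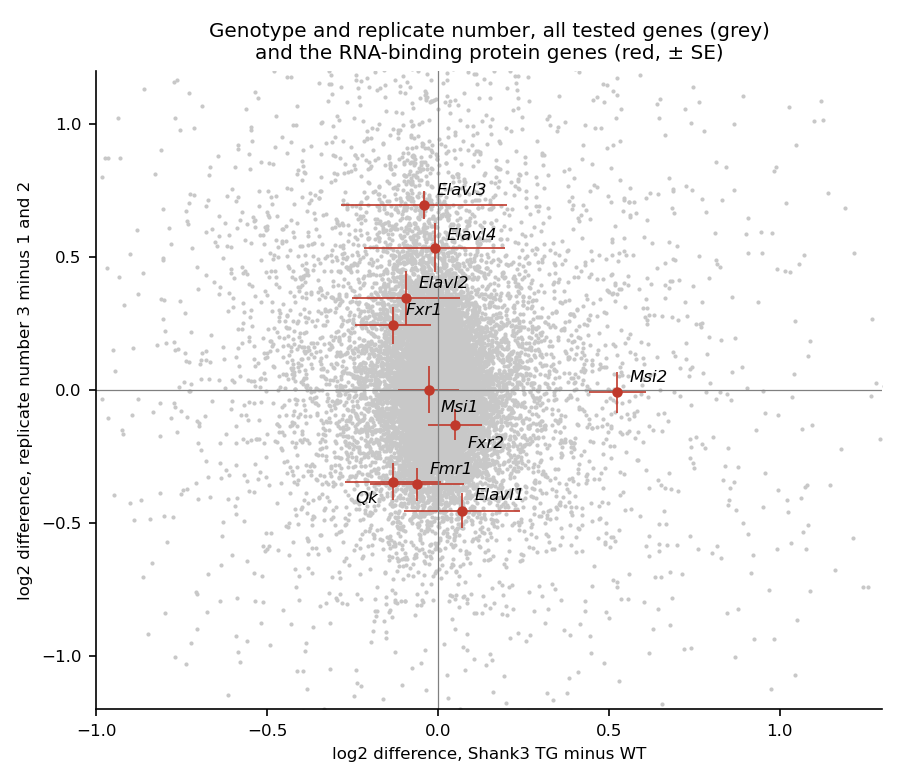
Log2 difference between *Shank3* TG and WT (horizontal axis) against the log2 difference between libraries numbered 3 and those numbered 1 and 2 (vertical axis), for the tested genes (grey; 568 lie outside the axes) and the 10 RNA-binding protein genes (red, with standard errors). *Msi2* lies apart to the right at 0.52 and -0.0079, and most of the others spread along the vertical axis, from *Elavl1* at -0.45 to *Elavl3* at 0.70.

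On the share of the sum of squares over the 6 libraries, replicate number exceeded genotype in 9 of the 10 genes, against 83.5% of all tested genes. It was 99.3% in *Elavl3*, 94.3% in *Fmr1*, 93.8% in *Elavl1* and 91.8% in *Elavl4*, and between 73.4% and 81.4% in *Elavl2*, *Qk*, *Fxr1* and *Fxr2*. In *Msi1* neither took the larger part, with 21.7% for number and 3.56% for genotype, and its libraries differed little in all, with a coefficient of variation of 2.58% in *Shank3* TG and 8.32% in WT. *Msi2* was the exception, with the genotype share above the number share.

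Levels were compared between genes per kilobase of the longest protein-coding transcript. *Elavl3* was highest in WT, with 1519 ± 474 normalized counts per kilobase (SD, n = 3), and *Fxr2* followed with 1038 ± 70.7. *Qk*, with 909.97 ± 92.2, and *Elavl4*, with 804 ± 180.2, came next. *Fmr1*, *Fxr1* and *Elavl2* lay close together, with means of 576, 559 and 539 normalized counts per kilobase. The lowest were *Msi2* with 424 ± 28.8, *Elavl1* with 332 ± 60.3 and *Msi1* with 245 ± 20.4. Of the 9 pairs of neighbours in this order, 7 had overlapping WT libraries, and only *Elavl3* above *Fxr2* and *Msi2* above *Elavl1* did not. In *Shank3* TG, *Msi2* had 610 ± 39.5 normalized counts per kilobase and moved from rank 8 to rank 5, above *Fmr1*, *Fxr1* and *Elavl2*, whose TG means were 551, 508 and 500.2. The place of *Msi2* depends on the length that is used, since its 4 coding transcripts run from 405 to 6436 bases. Per kilobase of the median coding transcript it had rank 2 in WT and rank 1 in *Shank3* TG.

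**Figure D4:**
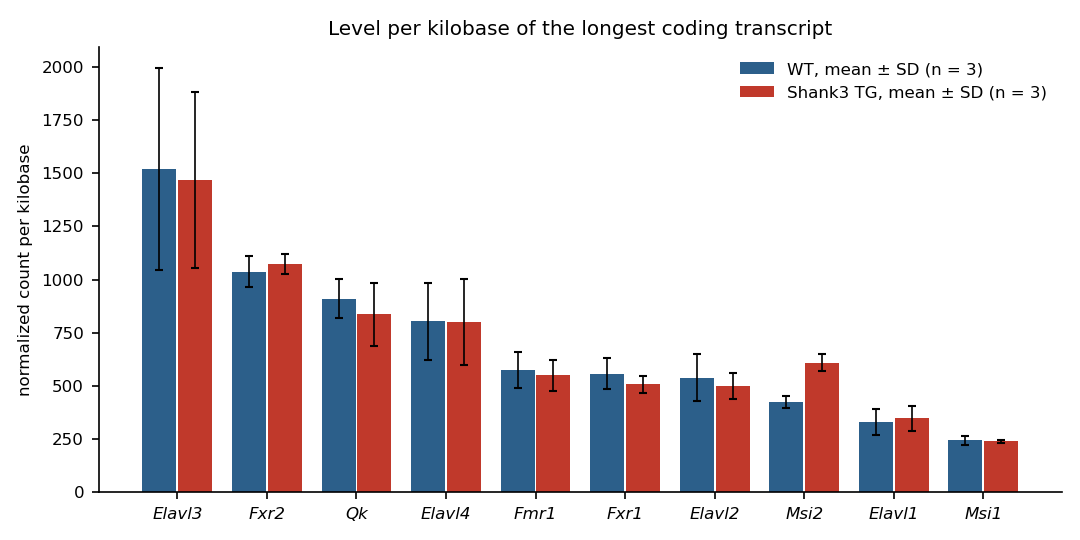
Normalized counts per kilobase of the longest coding transcript (vertical axis from 0) in WT (blue) and *Shank3* TG (red); bars are means and lines the SD of 3 libraries, in the order of the WT means. *Msi2* has rank 8 in WT with 424 and rank 5 in *Shank3* TG with 610, and the other 9 genes keep their order.

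The 3′ UTRs of the longest transcripts were long and AU-rich in most of the 10 genes. *Msi2* had 5310 bases of 3′ UTR, longer than or as long as 96.4% of the 15794 tested genes with a sequence, and *Qk* had 7014 (98.6%). The GC content of the 3′ UTR was 31.2% in *Fmr1*, 31.95% in *Elavl4*, 33.4% in *Elavl2* and 39.2% in *Msi2*, against a median of 44.6%, and it was 54.5% in *Msi1* and 56.2% in *Fxr2*. The GC content of the whole transcript was 38.9% in *Elavl4*, which was higher in the libraries numbered 3, and 39.2% in *Fmr1*, which was lower. Over 15794 tested genes, Spearman's rho between transcript GC content and the log2 difference was 0.0719 for replicate number and 0.16 for genotype, a description across genes that share their libraries.

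Motifs known for 3 of the families were searched on the mRNA strand in the first 1000 bases of the 3′ UTR, which 9 of the 10 genes and 8489 tested genes have. The Musashi motifs GTAGT and ATAGT were found in 69.8% of these windows. *Msi2* and *Qk* had 3 of them, a number reached in 17.2% of windows, *Fmr1* and *Fxr1* had 2, *Elavl1* had 1, and *Msi1*, *Elavl2*, *Elavl3* and *Elavl4* had none. The U-rich Elavl motifs TTTATTT and TTTGTTT, which were counted where they overlap, were found in 53.2% of windows. *Msi2* had 5, reached in 4.59% of windows, and *Msi1*, *Elavl2*, *Fmr1* and *Fxr1* had 3. *Qk* had 2, and *Elavl1*, *Elavl3* and *Elavl4* had 1. The quaking motifs ACTAAC and ACTAAT were found in 27% of windows, and once each in *Msi1* and *Elavl1*. The 30 bases richest in the motifs of the gene's own family held 1 motif in *Qk*, *Elavl2* and *Elavl4*. They are shown for *Msi2* and *Elavl1*, which held more, with the letters of whole motifs in capitals.
Msi2, Musashi motifs, chr11:88344337-88344366, minus strand: gGTAGTgatttttgacttagtctgGTAGTc
Elavl1, Elavl motifs, chr8:4285767-4285796, minus strand: aTTTATTTATTTTTATTTATTTGTTTGTTT
Both sites lie in the last exon, exon 14 for *Msi2* with 2 motifs and exon 6 for *Elavl1* with 6, the latter beyond the first 1000 bases of the 3′ UTR. A match of letters is a description and does not show that a protein binds there.

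Other genes of mRNA regulation, taken from lists made up by function, gave no call for genotype. Of 29 neural splicing factors and mRNA-binding proteins and 29 partners of FMRP and proteins of mRNA granules, limma called 0 after adjustment. It also called 0% of all tested genes, so nothing is read from this count. Before adjustment 0 were under 0.05, against 2.01% of all tested genes. The replicate block and the empirical null gave 0 adjusted calls as well. With the block 1 of the 58, *Celf3*, named after its values were seen, was under 0.05 before adjustment, against 4.98% of all tested genes. The medians of the lists were -0.02 and -0.03. The most abundant of the first list were the splicing regulators *Celf4* and *Celf2* and the mRNA transport factor *Hnrnpa2b1*, with log2 differences of -0.06 (standard error 0.26), -0.04 (standard error 0.20) and -0.05 (standard error 0.20). The largest of that list was 0.19. Among the partners of FMRP, the actin-regulating *Cyfip2* averaged 33111 ± 1666 normalized counts against 31700.1 ± 1499 in WT, and the mRNA-binding *Purb* and *Pura* had log2 differences of -0.02 (standard error 0.07) and -0.05 (standard error 0.08). *Cyfip1*, named after its values were seen, was the 1 gene of these 58 without overlap, against 6.02% of all tested genes (3.12% lower), with 2094 ± 92.1 in *Shank3* TG and 2246 ± 44.4 in WT. Of the 58 genes, 19 were called for replicate number, 10 higher and 9 lower in the libraries numbered 3, against 14% of all tested genes (7.66% higher and 6.36% lower).

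Genes whose mRNAs or pathways are known to be tied to these proteins were read from the same fit. Of 16 mRNAs known to be bound by FMRP, 0 were under an unadjusted p of 0.05, against 2.01% of all tested genes. Their median log2 difference was 0.03, and it ran from -0.07 to 0.04 with 1 library left out. With the block there was 1 under that p, *Nos1*, likewise named after its values were seen, against 4.98% of all tested genes. The postsynaptic kinase *Camk2a* averaged 116681 ± 11146 normalized counts against 113020.0 ± 11865 in WT. The log2 differences of the amyloid precursor *App* and the GTPase regulator *Agap2* were -0.05 (standard error 0.07) and 0.08 (standard error 0.08). In the Numb and Notch pathway, 13 of 16 genes had a log2 difference above 0, with a median of 0.05 beside -0.0037 over all tested genes. Before adjustment 0 passed 0.05, against 2.01% of all tested genes, and with the block 0 did, against 4.98%. The list was not tested as a whole. *Numb*, a known target of Musashi proteins, averaged 1605 ± 85 normalized counts against 1467 ± 78.1 in WT, a log2 difference of 0.13 (standard error 0.08, or 0.06 with the block). Within the replicate numbers this was 0.12, 0.13 and 0.13, and 24.8% of all tested genes had the same direction at all 3. Its relative *Numbl* had 4108 ± 62.4 and 3813 ± 143, a log2 difference of 0.11 (standard error 0.07). *Numbl* was the 1 gene of the 16 without overlap, against 6.02% of all tested genes (2.91% higher). The Notch target *Hey1* had a log2 difference of 0.05 (standard error 0.10).

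Among 5 mRNAs known to be bound by quaking, limma called 0 genes after adjustment, as it did over all tested genes. All 5 had a log2 difference below 0, with a median of -0.30. Lower at an unadjusted p under 0.05 were 2, against 1.08% of all tested genes, and 3 with the block, against 2.66%. The myelin gene *Mbp*, which is also in the list of oligodendrocyte markers, had 34146, 43598 and 29865 normalized counts in the TG libraries against 53914, 51259 and 41952 in those of WT. The highest TG library was above the lowest WT library, and the log2 difference was -0.46 (standard error 0.15). *Hnrnpa1*, a quaking target found in all cells, had a log2 difference of -0.05 (standard error 0.08). The part of oligodendrocyte content in these values was not tested. Markers of other cells that could hold Musashi mRNA gave small medians, -0.01 for 10 microglia, 0.04 for 8 endothelial, 0.04 for 8 progenitor and neuroblast and -0.05 for 5 oligodendrocyte precursor markers. Their signs were not stable. With 1 library left out these medians ran, in that order, from -0.07 to 0.08, -0.06 to 0.09, -0.03 to 0.10 and -0.15 to 0.03. Of these markers, *Vcan* of the precursors, named after its values were seen, was under an unadjusted p of 0.05, with a log2 difference of -0.32. It was lower without overlap between the genotypes. Over all tested genes 1.08% were lower at that p and 3.12% were lower without overlap. The 10 neuron markers had a median of 0.04.

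**Figure D5:**
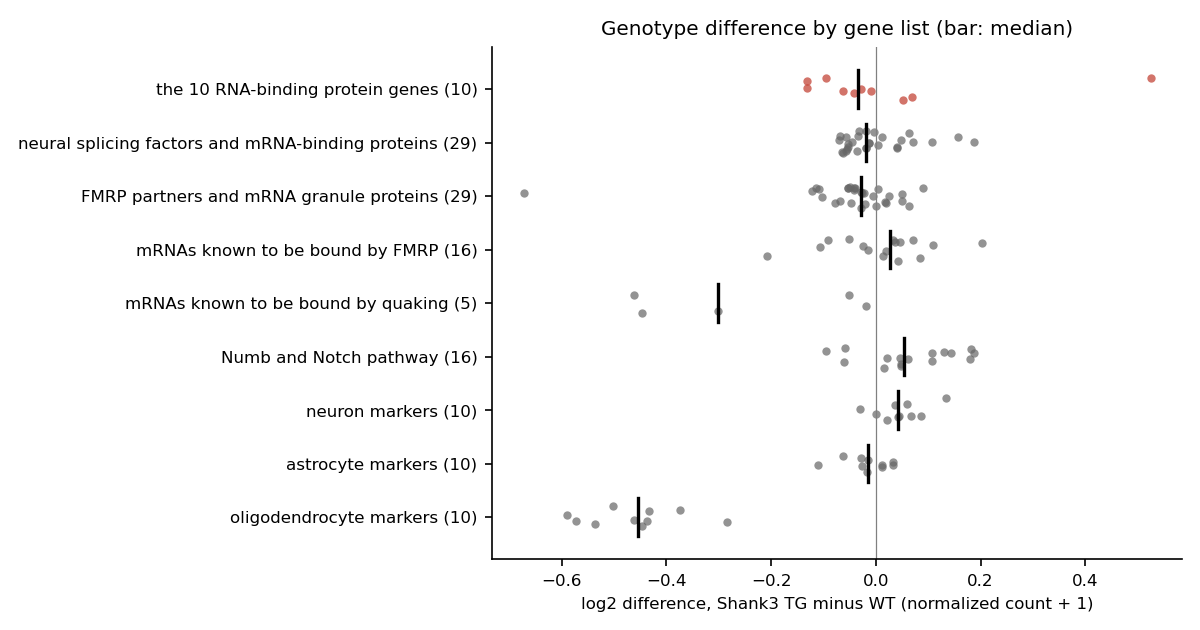
Log2 difference between *Shank3* TG and WT (horizontal axis) of each gene in the lists, with the number of genes in brackets and the median as a bar. *Msi2*, at 0.52, lies apart from the other genes of the top row (red), while the oligodendrocyte markers lie between -0.59 and -0.28. The point at -0.67 is *Igf2bp1*, named after its values were seen, with means of 6.37 normalized counts in *Shank3* TG and 11.02 in WT.

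Genes near *Msi2* on chromosome 11 did not share its difference. The 3 tested genes on each side, from *Vezf1* to *Coil* (88068279 to 88991613), had log2 differences between -0.14 and 0.09. Before adjustment limma put 0 of the 6 below 0.05, against 2.01% of all tested genes. The genotypes overlapped in all 6, and 6.02% of all tested genes were without overlap. At such shares 6 genes are too few, so nothing is read from these counts. The 5 tested genes whose centred log2 values were nearest to those of *Msi2* over the 6 libraries were *Ascl5*, *Gdf10*, *Slc9a2*, *Scn7a* and *Smoc2*, at Euclidean distances of 0.136 to 0.208. *Gdf10*, a secreted factor of the TGF-β superfamily, had 139, 149.8 and 134 normalized counts in the TG libraries against 97.5, 97.97 and 100.04 in those of WT. *Scn7a*, a sodium channel, had 218, 197 and 201.2 against 156, 142 and 157. These genes were chosen by the pattern that *Msi2* shows, and their likeness is a description over 6 libraries.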

How the data were processed

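Poly(A) RNA of mPFC was sequenced with a stranded TruSeq library. The authors quantified transcripts with Salmon 0.9.1 on GRCm38 with GC bias correction, summed them to genes with tximport and normalized them with DESeq2 1.19.11, and deposited a signal per gene and library: normalized counts, which are estimates and not whole reads. Since whole reads could not be recovered, counting error is unknown and no count test was run.

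Names came from GENCODE M21 for 18231 of 18254 identifiers. Genes with a mean of at least 5 (16714) were compared with limma 3.58.1 (R 4.3.3, trend) on log2(normalized count + 1) with Benjamini-Hochberg adjustment. Fold changes on this scale understate those of low genes. Replicate number was tested with genotype in the model. The members and gene lists were chosen with earlier results of these data known, and the libraries numbered 3 were compared because they had been seen to stand apart. Named in each list were its 3 genes of highest level and those under an unadjusted p of 0.05, and nearest profiles were the 5 genes at the smallest Euclidean distance. Oligodendrocyte markers are summarised by their count. Libraries with the same number deviated together from their genotype means (r = 0.302, 0.332 and 0.616 over genes, other combinations at most 0.266), so the numbers were taken as pairs and used as a block in an alternative. An exact permutation test of 3 against 3 libraries cannot go below 0.1. Alternatives were other pseudocounts, filters, scalings, variance priors, an empirical null, the replicate block and leaving out libraries. Sequences are GENCODE M21 transcripts, compared with Biopython 1.88. A further quaking-bound mRNA is not reported here.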

Additional observations from a re-analysis of the deposited data

How the results depend on the processing

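For TG against WT, limma called 0 genes. It called 1 gene, *Shank3*, with the replicate block and 1, *Shank3*, without the 2 libraries numbered 3, and 26 with an empirical null, and 0 to 1 with 1 library left out, the 1 being *Shank3* without WT-3. The block left the log2 differences as they were and raised the genes under an unadjusted p of 0.05 from 336 to 833. The empirical null gave 1215 and leaving out TG-1 gave 219. *Msi2* had a log2 difference of 0.63 without the libraries numbered 3, and 8 of the 9 others changed sign in some setting, the exception being *Fxr1*.

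For replicate number, 2344 genes were called, against 533 without the variance trend, 0 with the empirical null and 222 (without WT-3) to 2554 with 1 library left out, of which 507 without TG-3 and 1401 without TG-1. Of the 10 genes, 6 were called, 1 (*Elavl3*) without the trend and 0 with the empirical null. Without TG-3 or WT-3 only 1 library numbered 3 was left, so calls then rest on 1 library on that side. The log2 difference of *Msi1* was -0.0054 with quantile normalization, and with 1 library left out it ran from -0.045 to 0.056 and that of *Msi2* from -0.16 to 0.15. By level over all libraries *Msi2* had rank 8 per kilobase of the longest transcript (8 in WT, 5 in *Shank3* TG), 5 per kilobase of the union of exons (7 and 5) and 1 per kilobase of the median coding transcript (2 and 1). The causes were not tested. With 3 pools per genotype and no read counts, precision is limited by the spread between pools.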
